A study of Mus musculus with 4 samples.

Results

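A set of 40 genes of glycolysis, lactate handling and the hypoxia response was followed in J558 allografts, whose RNA was sequenced in bulk after treatment with vehicle or TAK-931. The genes were chosen by name, from enzymes of the pathway, its transporters, and regulators and targets of the hypoxia-inducible factors (HIFs). The choice was made with earlier results of these data known. All 40 had a row among the 24421 gene symbols of the count tables, and 39 had enough counts to be tested. J558 is a plasmacytoma line of the mouse, that is, a tumour of antibody-secreting plasma cells, and TAK-931 blocks CDC7, a kinase needed for the start of DNA replication. J558 cells had been placed under the skin of female BALB/c mice. The study's reporting summary gives the mice as 4 weeks of age, without saying at which step. The Vehicle group received 0.5% methylcellulose (Vehicle-1 and Vehicle-2) and the TAK-931 group (TAK-931-1 and TAK-931-2) received 60 mg/kg of the inhibitor orally each day, and tumours were taken on day 6. Each group thus held 2 libraries, each named by the labels as a separate sample, and p-values measure the spread between these samples. RNA came from whole tumours, in which tumour cells and host cells were not separated.

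Glycolysis splits glucose into pyruvate in the cytosol and yields ATP without oxygen. Pyruvate is then either reduced to lactate, which leaves the cell through monocarboxylate transporters, or carried into mitochondria. When oxygen is scarce, prolyl hydroxylases stop marking the HIF alpha subunits for destruction by VHL, and the stabilized factors switch on glucose transporters, glycolytic enzymes, Vegfa and other genes through short DNA elements with the core ACGTG or GCGTG. Plasmacytomas, like many tumours, run glycolysis at a high rate, and so do activated macrophages and T cells.

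In the treated tumours, members of these pathways lay on both sides of vehicle. In both TAK-931-treated libraries, the hexokinases Hk1, Hk2 and Hk3, the fructose-2,6-bisphosphate enzymes Pfkfb3 and Pfkfb4, the neuron-type enolase Eno2, the HIF subunits Hif1a and Epas1, and the peptide hormone Adm were above both vehicle libraries. Lactate dehydrogenase Ldha, the lactate transporter Slc16a1, the pyruvate dehydrogenase kinase Pdk1 and the angiogenic factor Vegfa were below both. The most abundant enzymes, Gapdh, Pkm and Aldoa, differed little between the groups. No difference passed the adjusted threshold in the edgeR fit, so the values below are descriptions of 4 tumours.

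Of the 39 members tested, 16 were higher in both TAK-931 libraries than in both vehicle libraries, 14 were lower and 9 overlapped. The members lower without overlap were 12 with median-of-ratios factors and 11 with library size only. With at least 10 counts required in every library, which left out Car9 and Egln3, 14 members were higher without overlap. Over all 13669 genes tested, 30.0% did not overlap and were higher and 32.7% did not overlap and were lower, so groups without overlap were common throughout the transcriptome. At an unadjusted p under 0.05 by edgeR, 7 members were higher (11.6% of all genes) and 2 were lower (6.55% of all genes). After Benjamini-Hochberg adjustment over all genes, 0 members passed 0.05, as did 0.0% of all genes, and the lowest adjusted p was 0.275. The median log2 fold change was 0.23 over the members and 0.024 over all genes, and the former was -0.047 without TAK-931-1. DESeq2, run on the same 13669 genes, called 7 members (Hk3, Pfkfb3, Eno2, Hif1a, Epas1, Vegfa and Adm) at an adjusted p under 0.05, where it called 10.2% of all genes. The number of calls thus depended on the tool. Without Vehicle-1 the members at an unadjusted p under 0.05 fell to 3 (Hk3, Pfkfb3 and Epas1), and without Vehicle-2 they were 7, while over all genes that number went from 2475 to 1003 and 1019.

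The treated libraries did not resemble each other in how far they stood from vehicle. Of the treated pair, TAK-931-1 lay farther from vehicle in 34 of 39 members, and in 10581 of 13669 genes. Set against the vehicle mean, the members had a median log2 ratio of 0.49 for TAK-931-1 but -0.044 for TAK-931-2. With TAK-931-1 left out, edgeR called 13 of 39 members (28.7% of the genes tested), namely Hk1, Pfkl, Pfkfb3, Eno2, Ldha, Slc16a1, Pdk1, Hif1a, Epas1, Egln1, Vegfa, Ddit4 and Adm. With TAK-931-2 left out, it called 27 of 39 members (58.1% of the genes tested). In these fits the spread came from the vehicle pair alone, and the single treated library was assumed to vary as little, so the calls compare single tumours with vehicle.

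Total counts lay between 16487902 and 19589339 per library, and 3 counts, the limit that a count of 0 allows, equalled 0.153 to 0.182 CPM (CPM, counts scaled by TMM to a common library total, is the level scale used throughout). The floor of 3 counts covers counting error only. The ± values given below are standard errors (SE) of the edgeR fit, and they include the spread between libraries. The vehicle libraries correlated with each other across genes at a Pearson's r of 0.977, the TAK-931 libraries at 0.865. With Vehicle-1 and Vehicle-2, r was 0.95 and 0.939 for TAK-931-2 and 0.806 and 0.791 for TAK-931-1. TAK-931-2 was thus closer to the vehicle libraries than to TAK-931-1. The drug's target Cdc7 lay at 23.0 and 21.5 CPM in the vehicle libraries and at 21.3 and 21.2 CPM in TAK-931-1 and TAK-931-2. The labelled line was checked against 12 plasma cell genes, whose summed level was 15410 and 15660 CPM in vehicle, with 6236 CPM for TAK-931-1 and 18150 for TAK-931-2. Trap1a, a gene expressed by J558, lay at 1127, 1095, 355.5 and 1235 CPM in the same order. In TAK-931-1, 1 of the 12 plasma cell genes was above both vehicle libraries and 11 were below, and in TAK-931-2 7 were above (Jchain and Irf4 among them) and 5 below (Sdc1, Xbp1, Mzb1, Fkbp11 and Pou2af1). A list of 6 B cell genes, chosen after the data were examined, summed to 199 and 241 CPM in vehicle and to 131 and 224 CPM after treatment, most of it from Cd79b, with Pax5 at 0 and Cd22 above both vehicle libraries in both treated libraries.

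Markers of host cells moved with the libraries, and their levels stand here because the glycolytic genes are used by these cells as well. The 12 macrophage markers summed to 656 and 561 CPM in the vehicle libraries, with 9584 CPM for TAK-931-1 and 1717 for TAK-931-2, and 12 and 11 of the 12 were above both vehicle libraries. The 12 T cell markers summed to 82.7 and 65.9 CPM in vehicle, with 1521 CPM for TAK-931-1 and 174 for TAK-931-2. The 10 fibroblast markers gave 1968 and 2259 CPM, then 15810 and 5349 CPM. These 3 lists were thus higher in both treated tumours, by far the most in TAK-931-1. Neutrophil markers (8 of 9 in the tables, Elane at 0) summed to 13.8 and 14.6 CPM in vehicle, with 132 CPM for TAK-931-1 and 23.3 for TAK-931-2. Csf3r made up 115 CPM of the sum in TAK-931-1, where Mpo was below both vehicle libraries. In TAK-931-2, 2 of the 8 (Csf3r and Mpo) were above both vehicle libraries and 2 below, with S100a8 at 0. The sums of endothelial, skeletal muscle and adipocyte markers were above vehicle in TAK-931-1 and not in TAK-931-2, with 1135, 853 and 289 CPM there against 334 to 375, 110 to 115 and 45.9 to 69.1 CPM in vehicle and 336, 22.5 and 28.9 CPM in TAK-931-2. Above both vehicle libraries were 10 of 10, 12 of 12 and 6 of 7 of these markers in TAK-931-1, and 3 (Cdh5, Kdr and Vwf), 1 (Myoz1) and 0 in TAK-931-2. Fabp4 made up 255 CPM of the adipocyte sum in TAK-931-1, where Cidec was below both vehicle libraries. Erythroid markers did not exceed 2.64 CPM in any library and the haemoglobin genes were at 0. The part of these cells in the member values was not tested, and in bulk RNA fewer cells of a type and less RNA per cell cannot be told apart.

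**Figure D1:**
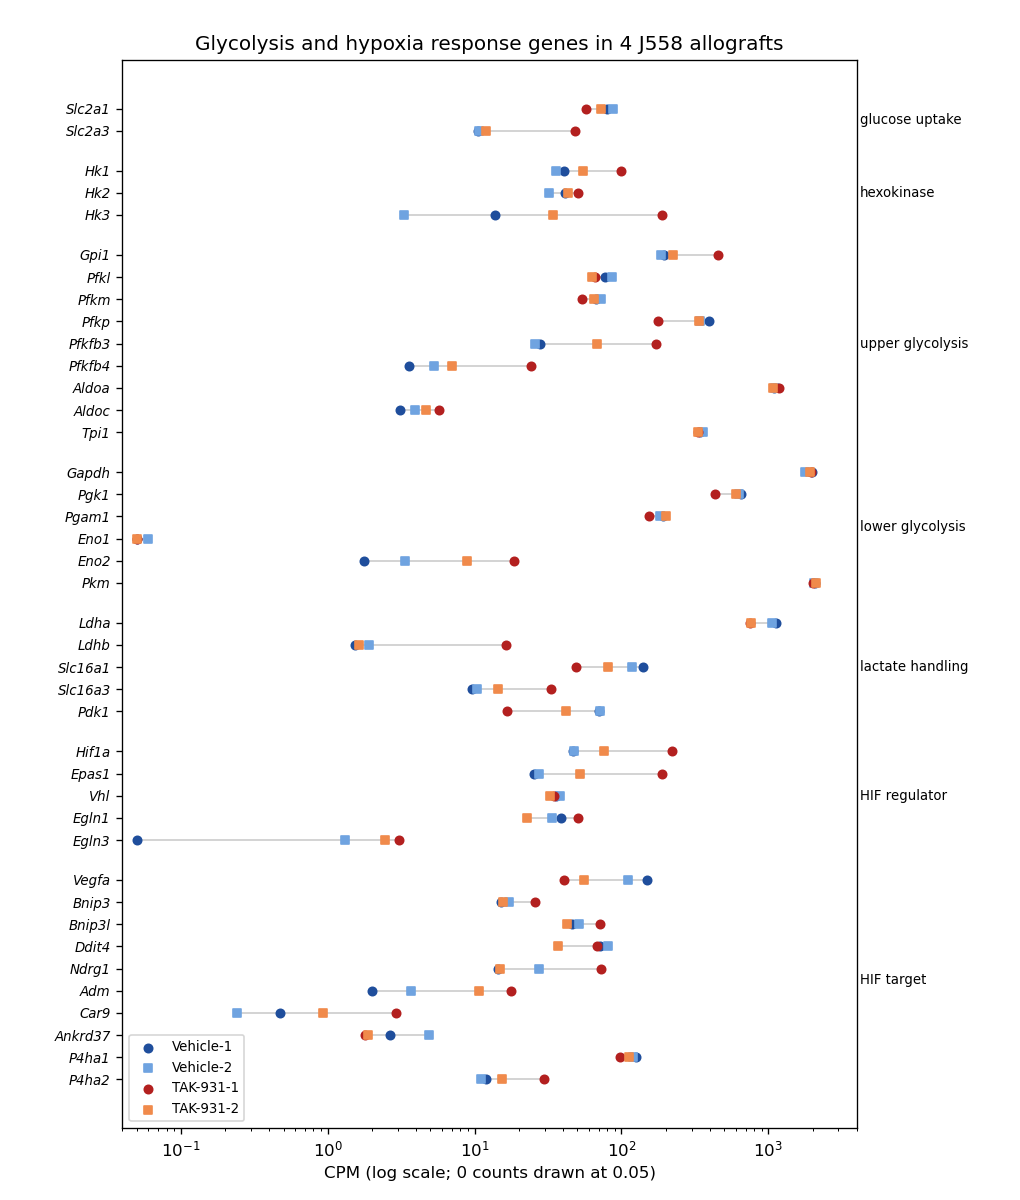
Level of each of the 40 genes (CPM, log scale) in the 4 tumours, one row per gene, grouped by role; blue marks are vehicle and red and orange marks are TAK-931-treated libraries, a grey line spans the range, and counts of 0 are drawn at the left edge. Genes with close vehicle marks and a distant TAK-931-1 mark, such as Hif1a (221 CPM) and Epas1 (188 CPM), stand beside genes whose 4 marks coincide, such as Pkm (2021 to 2120 CPM).

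Glucose enters these cells through facilitative transporters. Slc2a1 (GLUT1), the main transporter of dividing cells, lay at 79.9 and 87.1 CPM in vehicle, with 57.7 CPM for TAK-931-1 and 72.8 for TAK-931-2. Both treated libraries were below both vehicle libraries, by a log2 fold change of -0.36 ± 0.23 (SE), which was -0.20 without TAK-931-1. Slc2a3 (GLUT3), a transporter of high affinity found in leukocytes and neurons, lay at 10.6 and 10.7 CPM in vehicle, with 48.1 CPM for TAK-931-1 and 12.0 for TAK-931-2. The log2 fold change of 1.50 ± 0.72 rested on TAK-931-1, since without that library it was 0.18. Per kilobase of exon, Slc2a1 made up 92.1% and 92.6% of the summed level of the pair in vehicle, 64.9% in TAK-931-1 and 90.3% in TAK-931-2.

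Hexokinases phosphorylate glucose and so hold it in the cell. All 3 hexokinase genes were higher in both treated libraries than in both vehicle libraries, as were 30.0% of all genes. Hk3 (chr13:55005985-55021385, mm10), the form of myeloid cells, lay at 13.8 and 3.30 CPM in vehicle, with 189 CPM for TAK-931-1 and 34.2 for TAK-931-2. Its log2 fold change was 3.71 ± 1.17 (unadjusted p = 0.030), the largest of all members, although the vehicle libraries themselves differed widely. The value was 2.00 without TAK-931-1 and 5.07 without Vehicle-1. Hk1 (chr10:62268855-62379908), the widely expressed form that binds mitochondria, had 40.9 and 35.8 CPM in vehicle, with 99.5 CPM for TAK-931-1 and 55.1 for TAK-931-2, a log2 fold change of 1.01 ± 0.36 (unadjusted p = 0.044) that was 0.52 without TAK-931-1. Hk2, the inducible form favoured by many tumours, had 41.4 and 32.2 CPM in vehicle and 50.7 and 43.3 CPM after treatment, a log2 fold change of 0.35 ± 0.25 (0.16 without Vehicle-2). For Hk2 the gap between the groups was narrower than the gap within the vehicle pair.

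The make-up of the hexokinase pool differed with it. Per kilobase, Hk3 supplied 20.3% and 6.81% of the hexokinase level in vehicle, 65.0% in TAK-931-1 and 34.3% in TAK-931-2. Hk2 supplied 36.1% and 39.5% in vehicle, then 10.3% and 25.7%. The plain sum of the 3 genes was 96.0 and 71.4 CPM in vehicle, with 340 CPM for TAK-931-1 and 133 for TAK-931-2. Hk3 thus went from the least abundant of the 3 in both vehicle tumours to the most abundant in TAK-931-1. All the host cell marker sums given above were likewise higher in TAK-931-1 than in TAK-931-2.

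The next steps lead from glucose 6-phosphate to the triose phosphates. Gpi1, the isomerase of glucose 6-phosphate, lay at 196 and 186 CPM in vehicle, with 456 CPM for TAK-931-1 and 223 for TAK-931-2, a log2 fold change of 0.83 ± 0.41 (0.22 without TAK-931-1). Phosphofructokinase commits sugar to glycolysis. Its 3 genes were lower in both treated libraries under TMM scaling, as were 32.7% of all genes. However, Pfkm and Pfkp overlapped between the groups with library size only, and Pfkp also with median-of-ratios factors. Pfkp, the platelet form and the main one here, had 397 and 344 CPM in vehicle, with 177 CPM for TAK-931-1 and 337 for TAK-931-2 (log2 fold change -0.53, or -0.14 without TAK-931-1). Pfkl, the liver form, had 77.3 and 85.6 CPM in vehicle and 66.0 and 63.4 CPM after treatment (-0.33). Pfkm, the muscle form, had 66.9 and 73.0 CPM in vehicle and 53.6 and 64.9 CPM after treatment (-0.24, and -0.11 without TAK-931-1). Pfkp shares 276 of its exon bases (6.59%) with the row of Pitrm1.

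Phosphofructokinase is stimulated by fructose 2,6-bisphosphate, a regulator that the Pfkfb enzymes make and remove. Pfkfb3 (chr2:11471431-11553929), the inducible form with high kinase activity, lay at 28.0 and 25.9 CPM in vehicle, with 172 CPM for TAK-931-1 and 68.5 for TAK-931-2. On the log2 scale the fitted difference was 2.16 ± 0.51 (unadjusted p = 0.011), and it was 1.34 without TAK-931-1. Pfkfb4 had 3.56 and 5.28 CPM in vehicle, with 24.2 CPM for TAK-931-1 and 7.06 for TAK-931-2, a log2 fold change of 1.82 ± 0.74 (0.67 without TAK-931-1). Both treated libraries thus held more of either mRNA than both vehicle libraries, under all 3 scalings.

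Aldolase and triose phosphate isomerase complete the upper part of the pathway. Aldoa, the main aldolase, lay at 1095 and 1107 CPM in vehicle and at 1185 and 1068 CPM in TAK-931-1 and TAK-931-2, and the groups overlapped, except with library size only, where both treated libraries were higher. Aldoc, the brain form, had 3.08 and 3.96 CPM in vehicle and 5.69 and 4.67 CPM after treatment (log2 fold change 0.56 ± 0.51), and it was at most 0.304% of the aldolase level per kilobase. Tpi1 was lower in both treated libraries by a narrow margin that was lost with library size only, with 344 and 359 CPM in vehicle and 330 CPM in each treated library (-0.090 ± 0.22).

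The lower part of the pathway held the most abundant transcripts of the set, Gapdh and Pkm. Per kilobase of exon, the vehicle mean was 1246 CPM for Gapdh, 791 for Pkm, 604 for Aldoa, 567 for Ldha, 350 for Pgk1 and 220 for Tpi1. Gapdh, which oxidizes glyceraldehyde 3-phosphate, lay at 1967 and 1762 CPM in vehicle and at 1965 and 1933 CPM after treatment. Pkm, the pyruvate kinase of tumour and muscle, lay at 2077 and 2035 CPM in vehicle and at 2021 and 2120 CPM after treatment, with a log2 fold change of 0.010 ± 0.22. Neither gene separated the groups under TMM scaling, though Pkm was higher in both treated libraries with median-of-ratios factors. Pgk1, the first ATP-forming step, had 651 and 628 CPM in vehicle, with 436 CPM for TAK-931-1 and 602 for TAK-931-2 (-0.30 ± 0.27, and -0.091 without TAK-931-1), so that TAK-931-2 was close to vehicle. Pgam1, a mutase, had 193 and 184 CPM in vehicle and 155 and 201 CPM after treatment, on either side of the vehicle values.

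Enolase, the step before pyruvate kinase, could not be read from the row of its main gene. Eno1 (chr4:150237197-150248873) had 0 and 1 counts in the vehicle libraries and 0 in both treated libraries, at or under the floor of 3 counts. Of its 1776 exon bases, 1649 (92.8%) are also listed under the row Eno1b, which has 12 exons at the same place on chromosome 4 and 2 exons on another chromosome. Eno1b lay at 259 and 235 CPM in vehicle, with 134 CPM for TAK-931-1 and 201 for TAK-931-2, lower in both treated libraries. In all, 5 members share exon bases with another row (Eno1, Hk3, Pfkp, Tpi1 and Ankrd37). Whether the reads of Eno1b came from Eno1 cannot be told apart in these tables. Eno2 (chr6:124760053-124769673), the neuron-type enolase that is also a HIF target, lay at 1.78 and 3.36 CPM in vehicle, with 18.5 CPM for TAK-931-1 and 8.81 for TAK-931-2. edgeR gave a log2 fold change of 2.41 ± 0.65 (unadjusted p = 0.018), which was 1.77 without TAK-931-1, with no overlap between the groups.

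**Figure D2:**
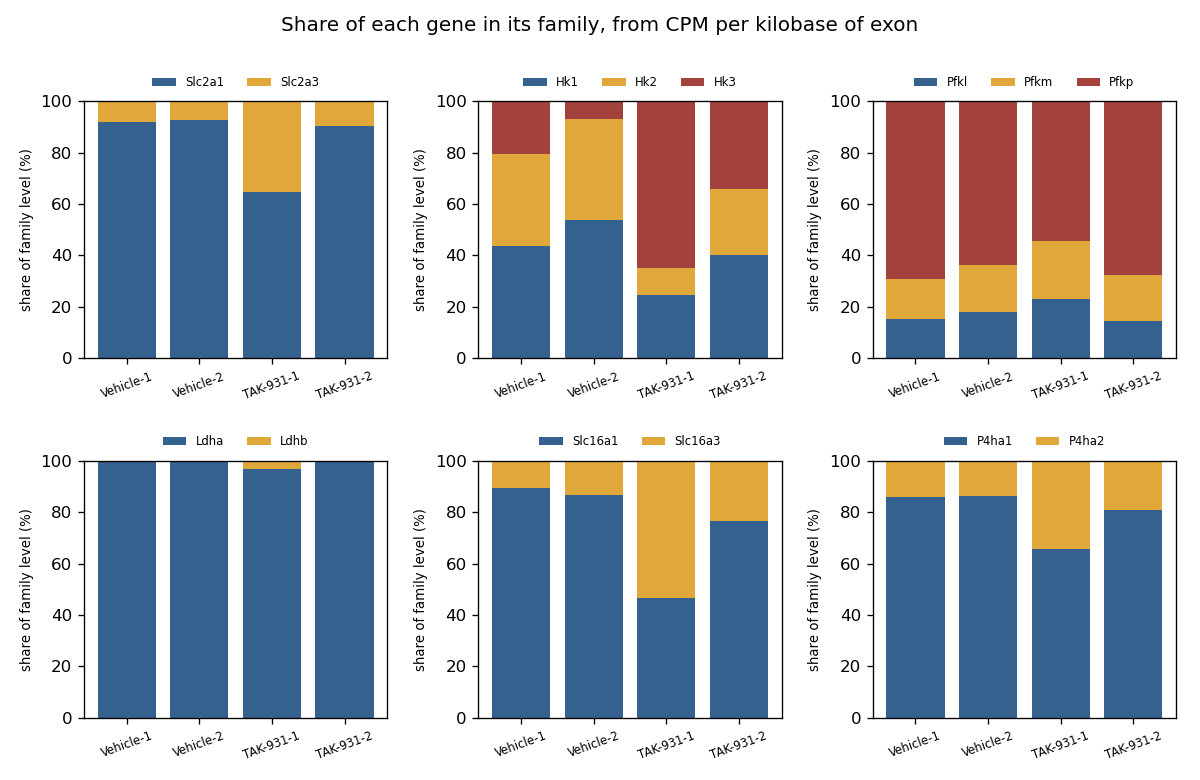
Share of each gene in the summed level of its family (percent, from CPM per kilobase of exon), one bar per tumour, for glucose transporters, hexokinases, phosphofructokinases, lactate dehydrogenases, monocarboxylate transporters and prolyl 4-hydroxylase subunits. The share of Hk3 was 65.0% in TAK-931-1 against 20.3% or less in vehicle, and Slc16a1 went from 86.8% or more in vehicle to 46.4% in TAK-931-1 and 76.5% in TAK-931-2.

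Among the 5 lactate handling members, 3 were lower without overlap, 1 was higher and 1 overlapped (32.7% of all genes were lower and 30.0% higher), with a median log2 fold change of -0.53. Ldha (chr7:46845804-46855627), which reduces pyruvate to lactate, lay at 1121 and 1066 CPM in vehicle and at 748 and 765 CPM in TAK-931-1 and TAK-931-2. The treated libraries agreed closely for this gene, at 0.684 and 0.700 of the vehicle mean, and the log2 fold change was -0.53 ± 0.22 (unadjusted p = 0.070). Ldhb, the form of oxidative tissues, lay at 1.54 and 1.92 CPM in vehicle, with 16.4 CPM for TAK-931-1 and 1.63 for TAK-931-2, which was within the vehicle range. Its log2 fold change of 2.38 ± 1.20 therefore came from 1 library and was -0.085 without it. Ldha remained 96.8% or more of the lactate dehydrogenase level per kilobase in every tumour.

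The lactate transporters differed in opposite directions. Slc16a1 (MCT1, chr3:104638664-104658462), which carries lactate both ways, lay at 140 and 118 CPM in vehicle, with 49.0 CPM for TAK-931-1 and 81.5 for TAK-931-2. The fold change on the log2 scale was -0.99 ± 0.33 (unadjusted p = 0.036), and -0.67 without TAK-931-1. Slc16a3 (MCT4), the exporter of strongly glycolytic cells, lay at 9.61 and 10.4 CPM in vehicle, with 33.0 CPM for TAK-931-1 and 14.5 for TAK-931-2, a log2 fold change of 1.25 ± 0.50 (0.53 without TAK-931-1). Per kilobase, Slc16a3 thus held 10.5% and 13.2% of the pair in vehicle, 53.6% in TAK-931-1 and 23.5% in TAK-931-2. Pdk1 (chr2:71873224-71903858), the kinase that inhibits pyruvate dehydrogenase and so limits the turning of pyruvate into acetyl-CoA, lay at 70.8 and 70.9 CPM in vehicle, with 16.6 CPM for TAK-931-1 and 41.7 for TAK-931-2. The estimate on the log2 scale was -1.28 ± 0.49 (unadjusted p = 0.055), and -0.77 without TAK-931-1. The vehicle libraries agreed closely and both treated libraries stood well below them.

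Because HIF acts through a short DNA element, the promoters of the members were read for its core. RefSeq windows of 300 bases (250 before and 50 after the start, GRCm38.p6) were matched to the deposited start of 29 of the 40 members. The letters ACGTG were searched on both strands. They were present in 19 of 29 member windows (65.5%), against 19.6% of all 32851 windows and 25.1% of the 8332 windows of genes tested here. It was in 8 of 12 windows of members higher in both treated libraries and in 8 of 11 of those lower in both. With GCGTG added the count was 24 of 29 (82.8%), against 43.8% of all windows and 62.3% of those of genes tested. The palindrome CACGTG, an E-box that contains ACGTG on both strands and is also bound by Myc and its relatives, was in 5 of 29 member windows (17.2%), against 7.15% of all windows and 9.77% of those of genes tested. Members were chosen partly as HIF targets, so their share is not independent of that choice. A match is a description of the letters only.

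The 250 bases before the start are shown for 5 members because they put side by side genes that were lower in both treated tumours with ACGTG (Ldha, Slc16a1) and without it (Pdk1, Vegfa), and a HIF target whose groups overlapped that does hold it (Bnip3). Of the pair without ACGTG, the Pdk1 window holds the other form, GCGTG, and the Vegfa window holds neither. They read 5′ to 3′ on the gene's strand, and capitals mark ACGTG or its reverse complement CACGT, joined where they overlap as CACGTG. The stretches are Ldha chr7:46845554-46845803 (plus strand), Slc16a1 chr3:104638414-104638663 (plus), Pdk1 chr2:71872974-71873223 (plus), Vegfa chr17:46032378-46032627 (minus) and Bnip3 chr7:138909507-138909756 (minus).
Ldha: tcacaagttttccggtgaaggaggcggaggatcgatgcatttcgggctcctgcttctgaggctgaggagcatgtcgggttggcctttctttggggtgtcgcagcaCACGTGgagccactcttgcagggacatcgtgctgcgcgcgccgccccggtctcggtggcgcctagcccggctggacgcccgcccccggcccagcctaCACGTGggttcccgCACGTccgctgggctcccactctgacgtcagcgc
Slc16a1: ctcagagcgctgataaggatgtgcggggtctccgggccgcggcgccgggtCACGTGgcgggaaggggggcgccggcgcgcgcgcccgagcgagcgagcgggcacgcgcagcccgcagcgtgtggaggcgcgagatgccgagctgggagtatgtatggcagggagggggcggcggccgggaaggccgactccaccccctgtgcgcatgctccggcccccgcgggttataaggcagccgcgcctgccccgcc
Pdk1: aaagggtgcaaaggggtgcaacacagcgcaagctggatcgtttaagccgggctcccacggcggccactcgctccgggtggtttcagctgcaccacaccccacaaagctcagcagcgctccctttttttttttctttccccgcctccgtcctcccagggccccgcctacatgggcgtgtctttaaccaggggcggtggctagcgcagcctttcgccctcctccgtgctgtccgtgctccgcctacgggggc
Vegfa: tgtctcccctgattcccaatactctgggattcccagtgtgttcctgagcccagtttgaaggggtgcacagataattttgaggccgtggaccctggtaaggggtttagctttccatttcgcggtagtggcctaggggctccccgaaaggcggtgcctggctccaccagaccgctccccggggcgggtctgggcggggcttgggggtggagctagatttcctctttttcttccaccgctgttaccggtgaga
Bnip3: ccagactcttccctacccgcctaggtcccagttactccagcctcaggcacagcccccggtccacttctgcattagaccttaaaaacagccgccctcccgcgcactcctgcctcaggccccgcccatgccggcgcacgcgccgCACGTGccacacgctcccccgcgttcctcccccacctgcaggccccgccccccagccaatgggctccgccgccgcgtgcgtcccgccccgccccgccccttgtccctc
Ldha held 3 separate marked stretches, Slc16a1 and Bnip3 held 1 each, and Pdk1 and Vegfa held 0 in these 250 bases.

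Of the 5 HIF regulators, the alpha subunits Hif1a and Epas1 and the hydroxylase Egln3 were higher in both treated libraries, as were 30.0% of all genes. The regulators' median log2 fold change of 1.65 was 0.67 without TAK-931-1, 1.06 without Vehicle-1 and 0.92 where at least 10 counts were required in every library, which leaves out Egln3. Hif1a (chr12:73907867-73947530), the subunit that drives glycolytic genes in most cells, lay at 46.7 and 47.7 CPM in vehicle, with 221 CPM for TAK-931-1 and 75.4 for TAK-931-2. Its log2 fold change was 1.65 ± 0.57 (unadjusted p = 0.039), and 0.67 without TAK-931-1. Epas1 (HIF-2 alpha, chr17:86753864-86833410), known from endothelial cells and macrophages, lay at 25.4 and 27.4 CPM in vehicle, with 188 CPM for TAK-931-1 and 51.9 for TAK-931-2. On the log2 scale the fitted difference was 2.18 ± 0.67 (unadjusted p = 0.028), and 0.97 without TAK-931-1. Both genes were higher in both treated tumours, and Epas1 went from 32.6% and 33.8% of the pair per kilobase in vehicle to 43.0% and 38.0%. These are mRNA levels, whereas the HIF alpha subunits are controlled mainly as proteins.

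Vhl, which marks hydroxylated HIF alpha for destruction, had 35.7 and 38.4 CPM in vehicle and 34.8 and 32.8 CPM after treatment (log2 fold change -0.13 ± 0.22), and the groups overlapped with median-of-ratios factors. Egln1 (PHD2), the main oxygen-sensing hydroxylase, had 38.5 and 33.7 CPM in vehicle, with 50.8 CPM for TAK-931-1 and 22.6 for TAK-931-2. The treated libraries lay on opposite sides of vehicle for Egln1, and the log2 fold change of 0.023 was -0.68 without TAK-931-1. Egln3 (PHD3), a hydroxylase that is itself a HIF target, had 0 and 22 counts in vehicle and 58 and 42 counts after treatment, which is 0 and 1.32 CPM against 3.06 and 2.45 CPM. The treated libraries were above both vehicle libraries, but the vehicle libraries differed from each other as well, and the log2 fold change of 2.05 ± 1.64 lay within 2 SE of 0. The value was 1.06 without Vehicle-1, and no fold is given without Vehicle-2, since Vehicle-1 was at 0.

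The HIF targets outside glycolysis numbered 10, with 3 higher, 4 lower and 3 overlapping, near the shares over all genes (30.0% higher and 32.7% lower), and a median log2 fold change of 0.30 that was -0.17 without TAK-931-1. Vegfa (chr17:46016993-46032377), the growth factor of blood vessels and the classic HIF target, lay at 150 and 111 CPM in vehicle, with 40.7 CPM for TAK-931-1 and 55.9 for TAK-931-2. Among all members it had the lowest unadjusted p by edgeR (0.0067), with a log2 fold change of -1.43 ± 0.29 that was -1.23 without TAK-931-1 and -1.70 without TAK-931-2. Adm (chr7:110627669-110629819), which encodes the vasodilator adrenomedullin, lay at 2.02 and 3.72 CPM in vehicle, with 17.8 CPM for TAK-931-1 and 10.7 for TAK-931-2. edgeR gave a log2 fold change of 2.31 ± 0.57 (unadjusted p = 0.013). These targets of the same factors thus stood on opposite sides of vehicle in both treated tumours.

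Car9, a carbonic anhydrase of the cell surface, was rare, with 8 and 4 counts in vehicle and 55 and 16 counts after treatment (0.474 and 0.240 against 2.90 and 0.934 CPM, log2 fold change 2.40 ± 0.95, and 1.36 without TAK-931-1). It was the 1 member tested that had under 10 counts in both vehicle libraries, so it entered the test through the treated side. Egln3, at 0 counts in Vehicle-1, also needed the treated libraries to pass the filter. P4ha2, an alpha subunit of the collagen prolyl 4-hydroxylase, had 12.0 and 11.1 CPM in vehicle and 29.6 and 15.5 CPM after treatment (0.96 ± 0.43, and 0.42 without TAK-931-1). P4ha1, another alpha subunit, had 125 and 121 CPM in vehicle and 98.4 and 112 CPM after treatment (-0.23 ± 0.21, and -0.14 without TAK-931-1). P4ha1 accordingly held 85.8% and 86.3% of the pair per kilobase in vehicle, 65.8% in TAK-931-1 and 80.7% in TAK-931-2.

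Ddit4 (REDD1), an inhibitor of mTORC1, was 1 of the 5 members for which TAK-931-2 was the farther library. It had 71.3 and 81.3 CPM in vehicle, with 68.1 CPM for TAK-931-1 and 37.2 for TAK-931-2 (log2 fold change -0.54 ± 0.36, and -0.19 without TAK-931-2). Ankrd37 had 2.67 and 4.86 CPM in vehicle and 1.79 and 1.87 CPM after treatment (-1.04 ± 0.62, and -0.57 without Vehicle-2), on 32 to 81 counts. It shares 49 of its exon bases (5.42%) with Ufsp2. The mitophagy receptors Bnip3 and Bnip3l and the stress gene Ndrg1 were above vehicle in TAK-931-1 and not in TAK-931-2. Bnip3 had 15.2 and 17.0 CPM in vehicle, with 26.0 CPM for TAK-931-1 and 15.6 for TAK-931-2. Bnip3l had 46.0 and 51.2 CPM in vehicle, then 71.6 and 42.2 CPM. Ndrg1 had 14.5 and 27.3 CPM in vehicle, then 72.9 and 14.8 CPM, and its log2 fold change of 1.07 was -0.50 without TAK-931-1.

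**Figure D3:**
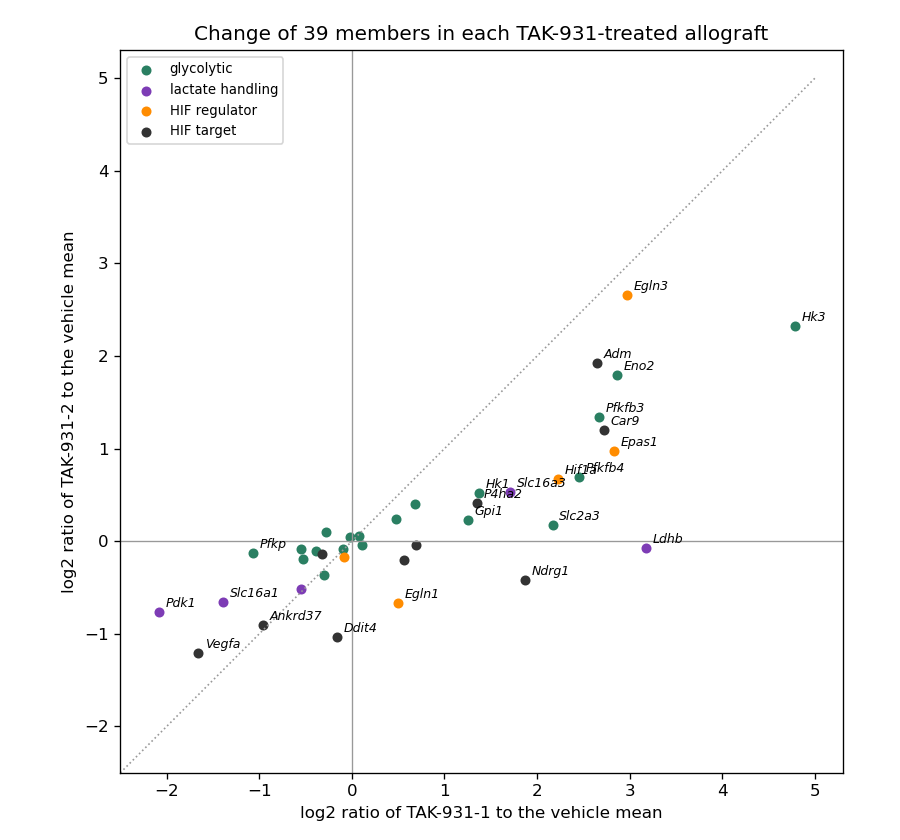
Log2 ratio of TAK-931-1 (horizontal) and of TAK-931-2 (vertical) to the mean of the vehicle libraries for the 39 members tested, coloured by group; the dotted line marks equal ratios and the axes cross at the vehicle mean. Vegfa, Pdk1 and Slc16a1 sit below 0 on both axes and Hk3, Eno2 and Adm above 0 on both, while Ldhb and Ndrg1 were above 0 in TAK-931-1 only.

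The libraries can be read against each other through these sums. The plain CPM sum of the lactate handling genes was 1344 and 1267 in vehicle, 863 in TAK-931-1 and 905 in TAK-931-2. Most of this sum was Ldha (748 and 765 CPM after treatment). In TAK-931-2, Ldha, Slc16a1 and Vegfa lay at 0.700, 0.630 and 0.428 of the vehicle mean, and in TAK-931-1 at 0.684, 0.379 and 0.312. The summed plasma cell markers, of which Jchain and Pou2af1 make up the most, lay at 1.17 and 0.401 of the vehicle mean in the same libraries, and their part in these values was not tested. The sum of the HIF regulators was 146 and 149 CPM in vehicle, with 498 CPM for TAK-931-1 and 185 for TAK-931-2.

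**Figure D4:**
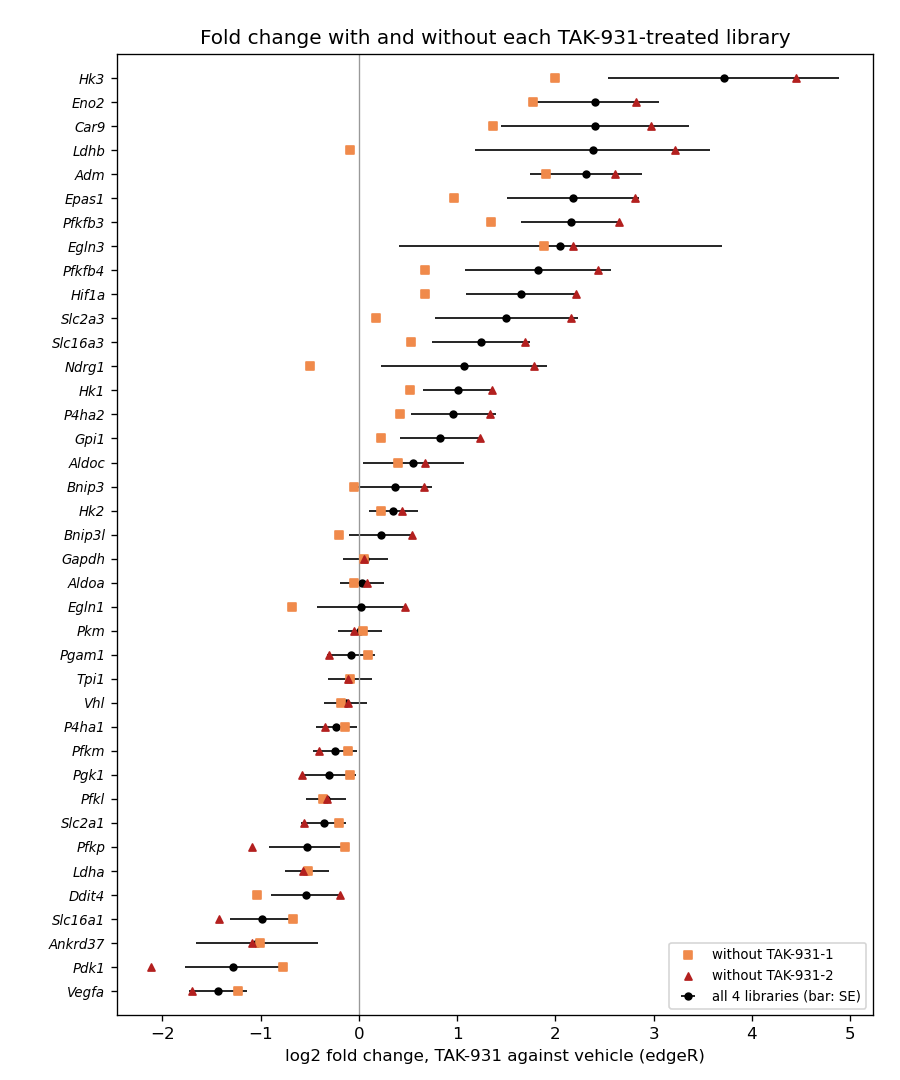
Log2 fold change of TAK-931 against vehicle for the 39 members tested, by edgeR, with all 4 libraries (black points, bars are 1 SE) and without TAK-931-1 (orange squares) or TAK-931-2 (red triangles). Vegfa (-1.23 and -1.70) and Adm (1.90 and 2.61) kept their side under both, whereas Ldhb (-0.085 and 3.22) and Ndrg1 (-0.50 and 1.78) did not.

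Other genes of the pathways were taken from lists of 46 genes each. Of 46 further genes of sugar metabolism, 39 were tested: 0 passed the adjusted threshold, 2 were higher and 1 was lower at an unadjusted p under 0.05, 4 were higher and 14 lower without overlap (over all genes 11.6% and 6.55% at that p, and 30.0% and 32.7% without overlap), and the median log2 fold change was -0.040. Pygl, the glycogen phosphorylase of liver and leukocytes, had 1.19 and 1.20 CPM in vehicle, with 30.9 CPM for TAK-931-1 and 4.90 for TAK-931-2, a log2 fold change of 3.90 ± 1.06. Pdk4 (2.44 ± 1.60) and Slc2a4 (2.40 ± 1.56), genes of muscle and fat fuel use, came next by size, but both were below both vehicle libraries in TAK-931-2. Slc2a4 had 8 and 12 counts in vehicle and 116 and 4 counts after treatment, so it passed the filter only with TAK-931-1. On the other side, Rpia, of the pentose phosphate pathway, had 70.8 and 68.4 CPM in vehicle and 31.4 and 38.2 CPM after treatment, with the largest difference downwards (0.451 and 0.549 of the vehicle mean). Pfkfb1 (-0.77 ± 0.50) and Dlat, a subunit of pyruvate dehydrogenase (-0.75 ± 0.32), were also lower in both treated libraries.

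Of 46 further genes of the hypoxia response, 43 were tested: 0 passed the adjusted threshold, 10 were higher and 5 were lower at an unadjusted p under 0.05, 12 were higher and 20 lower without overlap, to be read against the same shares over all genes, and the median log2 fold change was -0.14. Edn1, the vasoconstrictor endothelin, had 0 and 12 counts in vehicle and 224 and 69 counts after treatment (log2 fold change 4.44 ± 1.63). Rora, a nuclear receptor, had 16 and 9 counts in vehicle and 341 and 64 counts after treatment (log2 fold change 3.85 ± 1.02). Edn1 in Vehicle-1 and Rora in Vehicle-2 had under 10 counts, so both entered the test through the treated side. Bhlhe40, a repressor of the clock, had 7.06 and 8.75 CPM in vehicle, with 97.5 CPM for TAK-931-1 and 33.9 for TAK-931-2. Its log2 fold change was 3.05 ± 0.61. The largest differences downwards were those of Stc2 (-1.59 ± 0.56), Sap30 (-1.06 ± 0.22) and Ero1l (-1.02 ± 0.42), of which Sap30 had 47.0 and 50.1 CPM in vehicle and 23.7 and 22.8 CPM after treatment.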

How the data were processed

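RNA was extracted with a column kit and sequenced from 4 allografts, 2 per group. The authors deposited raw counts per gene, 1 table per library, with exon positions and lengths. The submitters' processing notes name STAR 2.6.1c, featureCounts and mm10. The strand and pair settings were not given in the sources used here, so overlapping genes and close paralogs are uncertain. Among counts of 1 to 20, odd values made up only 17.9% to 23.9%, so counts may come in pairs and counting errors may be larger than the counts imply; halved counts were tried for this reason. Depth was 16487902 to 19589339 counts.

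Genes that passed filterByExpr in edgeR 4.0.16 (R 4.3.3, minimum count of 10) were scaled by TMM and tested with the robust quasi-likelihood test, two-sided, with treatment as the only term and Benjamini-Hochberg adjustment over 13669 genes at 0.05. The biological coefficient of variation was 0.436. Each SE was derived from the log2 fold change and the F statistic of that test. Log2 ratios of single libraries used a prior count of 2. Levels were compared between genes per kilobase of deposited exon length. With 2 libraries against 2, an exact permutation test cannot go below 0.333. The scripts were tested on simulated counts. Alternatives were median-of-ratios factors, library size only, no filter, at least 10 counts in every library, halved counts, a replicate block, each library left out, DESeq2 1.42.0, limma-voom (limma 3.58.1), a prior count of 0.5, shares of plain counts and the added motif GCGTG.

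All 40 members were named, in the order of their roles. From each list of further genes, the 3 largest log2 fold changes in each direction with a mean of at least 1 CPM were named, with Cdc7 and Trap1a as checks. The members and lists were chosen with earlier results of these data known, so no list was given a test of its own.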

Additional observations from a re-analysis of the deposited data

How the results depend on the processing

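The 4 libraries of whole tumours, of which the treated pair differed widely, set the limits of these values, and genes with few counts in vehicle (Eno1, Car9, and Egln3 in Vehicle-1) carry little information. Of 39 members, all kept their direction and stayed above an adjusted p of 0.05 under median-of-ratios factors and library size only. In the median log2 fold changes, the glycolytic value of 0.064 was 0.11 with median-of-ratios factors, 0.078 with library size only, 0.021 with no filter, 0.14 with at least 10 counts in every library, 0.094 with halved counts and 0.11 with DESeq2, and the lactate handling value of -0.53 was -0.49, -0.56, -0.46, -0.50 and -0.49 with median-of-ratios factors, no filter, at least 10 counts, halved counts and DESeq2. The HIF regulator median of 1.65 was 0.92 with at least 10 counts in every library, and members lower without overlap were 11 with library size only and 12 with median-of-ratios factors, against 14. DESeq2 called 1389 genes and 7 members, with 14 members and 3213 of the 13669 genes at an unadjusted p under 0.05. With GCGTG added, the share of member promoters holding the core was 82.8%.

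Replicate numbers were shared by the groups without a stated pairing, and same-numbered libraries deviated together with a correlation of 0.004 across genes, so the numbers are names only. The replicate block called 144 genes and 1 member (Hk3), and Egln1 was -0.088 under the block.

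Leaving out each library in turn gave between 0 and 8424 genes called, 0 to 27 members called and 3 to 29 members at an unadjusted p under 0.05, with a glycolytic median of 0.018 to 0.15 and a lactate handling median of -0.59 to -0.49. The calls appeared when a TAK-931 library was left out, which leaves the vehicle pair as the source of the spread. Directions reversed, in ranges of log2 fold change over these fits, for Aldoa (-0.047 to 0.084), Gapdh (-0.036 to 0.15), Pgam1 (-0.30 to 0.093), Pkm (-0.047 to 0.041), Ldhb (-0.085 to 3.22), Egln1 (-0.68 to 0.47), Bnip3 (-0.051 to 0.67), Bnip3l (-0.21 to 0.54) and Ndrg1 (-0.50 to 1.78). With no filter Pkm was -0.016 and Egln1 -0.011, and with limma-voom Egln1 was -0.073. The cause of these reversals was not tested beyond the library left out.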
